A study of Mus musculus with 10 samples.

Results

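The imprinted domains of distal chromosome 7 were examined in mouse E14 embryonic stem cells, a much used pluripotent line derived from the blastocyst, by RNA sequencing. Unedited cells (WT) were set against cells of the genotype CBE-KO, from which a site bound by CTCF, an insulator protein of chromatin, is missing. All cells carried no other labelled change and had been moved from medium with LIF and 2 kinase inhibitors to medium without them, with retinoic acid added at a labelled dose of 2 µM for 24 h. Each group held 2 libraries. The study's stated interest was in contacts of enhancers near the element with the HoxA cluster, so the genes described here lie outside the locus it was designed for. Whether the CBE-KO libraries came from 1 edited clone or several is not given in the sources used here. If they came from 1 clone, the p-values below cover the spread between its libraries and not that between clones.

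The genes were chosen by name: H19, Igf2, Ascl2, Cd81, Tssc4, Kcnq1, Kcnq1ot1, Cdkn1c, Slc22a18 and Phlda2, that is 10 of the 52636 gene identifiers in the count tables. All 10 were matched to a single identifier, and 9 of them passed the filter on low counts that left 16005 genes to test. The choice was made with the CBE-KO against WT differences of these same libraries known, in particular the low Igf2 and Phlda2 counts in CBE-KO. Values of the 10 genes are therefore a description, and no p-value is given for them.

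Genomic imprinting is the expression of a gene from only the maternal or only the paternal chromosome, set by DNA methylation laid down in the germ cells. In the Igf2-H19 domain, CTCF bound to the unmethylated maternal control region keeps shared enhancers from Igf2, so that the maternal copy makes H19 and the paternal copy makes Igf2. In the Kcnq1 domain, the noncoding RNA Kcnq1ot1 is transcribed from the unmethylated paternal control region and silences neighbouring genes on the same chromosome, so that Cdkn1c, Phlda2, Slc22a18 and others are expressed from the maternal copy. The imprinting of Ascl2, Cd81 and Tssc4 is known mainly from the placenta. The read counts do not separate the parental copies, so the split by copy below uses textbook knowledge of which copy is expressed.

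In RefSeq's gene table for GRCm38.p6 the 10 genes follow each other on chromosome 7 from H19 (chr7:142575530-142578146, a lncRNA gene) through Igf2 (chr7:142650768-142666816), Ascl2 (chr7:142966822-142969264), Cd81 (chr7:143052750-143067930), Tssc4 (chr7:143068416-143071093), Kcnq1 (chr7:143106877-143427050), Kcnq1ot1 (chr7:143213111-143296547, a lncRNA gene), Cdkn1c (chr7:143458339-143461059) and Slc22a18 (chr7:143473726-143499334) to Phlda2 (chr7:143501545-143503145). The whole span of Kcnq1ot1 lies inside that of Kcnq1, in antisense. RefSeq promoter windows were found for 7 of the 10 genes, with 4 alternative windows for Igf2. The 250 bases before an annotated transcript start are shown for the gene that was higher in CBE-KO and for 3 that were lower, 5′ to 3′ on the strand of the gene, with CG dinucleotides, the targets of DNA methylation, in capitals. Kcnq1ot1 is at chr7:143296548-143296797, Igf2 (the window richest in CG) at chr7:142658805-142659054, Ascl2 at chr7:142969265-142969514 and Phlda2 at chr7:143502525-143502774, all on the minus strand of GRCm38.p6. The Igf2 and Phlda2 windows belong to starts inside the gene's full span.
Kcnq1ot1: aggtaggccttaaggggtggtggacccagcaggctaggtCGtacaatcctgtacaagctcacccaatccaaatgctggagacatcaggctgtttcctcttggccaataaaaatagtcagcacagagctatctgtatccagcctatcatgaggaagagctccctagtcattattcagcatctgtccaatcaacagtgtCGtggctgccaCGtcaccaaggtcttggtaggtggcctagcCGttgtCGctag
Igf2: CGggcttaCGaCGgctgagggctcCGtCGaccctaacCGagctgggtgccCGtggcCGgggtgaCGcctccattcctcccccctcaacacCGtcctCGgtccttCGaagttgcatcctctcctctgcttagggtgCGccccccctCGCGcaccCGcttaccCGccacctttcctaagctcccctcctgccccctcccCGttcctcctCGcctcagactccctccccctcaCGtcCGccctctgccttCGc
Ascl2: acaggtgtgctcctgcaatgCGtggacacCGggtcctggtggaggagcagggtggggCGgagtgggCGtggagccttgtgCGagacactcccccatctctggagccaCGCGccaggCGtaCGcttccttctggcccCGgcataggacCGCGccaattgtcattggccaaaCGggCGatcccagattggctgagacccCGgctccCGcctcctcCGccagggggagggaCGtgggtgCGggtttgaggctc
Phlda2: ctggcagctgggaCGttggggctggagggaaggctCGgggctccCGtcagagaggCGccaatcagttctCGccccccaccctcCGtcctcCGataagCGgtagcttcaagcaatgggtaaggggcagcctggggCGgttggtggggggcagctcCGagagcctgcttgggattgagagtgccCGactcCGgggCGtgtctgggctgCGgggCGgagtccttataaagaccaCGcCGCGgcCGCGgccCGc

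These windows differed in CG content. The Igf2, Phlda2 and Ascl2 windows held 22, 21 and 19 CG dinucleotides, and 14.8%, 16.3% and 19.7% of all 32851 RefSeq windows of this length held at least as many. The Kcnq1ot1 window held 5, close to the median of 6 over all windows. Bases after the transcript start were not counted, so this value does not describe the control region from which Kcnq1ot1 is transcribed. The other 3 Igf2 windows held 1, 10 and 6. Cd81 and Tssc4, the tested genes here with the smallest differences between the groups, had windows with 16 and 17 CG, and Slc22a18 had none. The hexamer TGCCGC, the recognition sequence of the imprint-protecting protein ZFP57, was searched on both strands, and no window of these genes held it, against 8.68% of all windows. The hexamer AGGTCA, the half-site of retinoic acid receptors and other nuclear receptors, was found 1 time, in the most upstream Igf2 window, and in 14% of all windows on either strand. A match or its absence describes these letters only.

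Library totals ran from 14108038 to 15632960 counts, so that 3 counts, taken as the floor, corresponded to 0.184 to 0.218 CPM. CPM are counts scaled to library totals, adjusted by edgeR's TMM factors, which hold the bulk of genes level between libraries. Replicates differed by more than sampling noise, with a chi-square statistic per degree of freedom of 2.70 and 3.40 within groups against 20.3 to 23.2 between them. Loss of a noncoding site cannot be read from gene counts. Ctcf itself had 2419 and 2172 counts in WT against 2505 and 2309 in CBE-KO. The lines differed in a further way before any imprinted gene is considered: the Y-linked gene Ddx3y had 6 and 5 counts in WT against 920 and 822 in CBE-KO, Eif2s3y 3 and 5 against 888 and 779, and Uty 2 and 0 against 293 and 267. Xist, the RNA that coats an inactive X, had 117 and 132 against 73 and 116, a log2 fold change of -0.51 that did not pass (edgeR adjusted p = 0.0736). Near-absence of Y-linked transcripts from the WT libraries and the missing element cannot be told apart as properties of these lines. The summed level of 9 pluripotent stem cell markers, fixed as a list, was 7914 to 8221 CPM in WT and 7589 to 7729 CPM in CBE-KO, with all 9 above the floor in every library. Dppa5a, at means of 3491 and 4246 CPM, carried that sum. Of the 9 markers 6 passed as lower in CBE-KO, among them Utf1 (-1.67), Tdgf1 (-1.20), Klf4 (-0.49) and Zfp42 (-0.42). The other 2 that passed, Dppa5a and Nanog, were higher. Among all tested genes 21.5% passed as lower and 21.6% as higher.

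In CBE-KO, Igf2, Phlda2, Cdkn1c and Ascl2 were lower than in WT by wide margins, Kcnq1ot1 was higher, and H19, Tssc4 and Cd81 stood at 83.3%, 85.6% and 95.8% of their WT level. Of the 9 tested genes, 7 passed edgeR's quasi-likelihood test at an adjusted p under 0.05, 6 lower and 1 higher. The background was high: 43.1% of all tested genes passed, 21.6% higher and 21.5% lower. Libraries of the groups did not overlap for any of the 9 tested genes, nor for 70.4% of all tested genes, 36.4% with CBE-KO higher and 33.9% with CBE-KO lower. Nothing is read from these counts, since the genes were chosen on this contrast. Their median log2 fold change (CBE-KO minus WT) was -0.73, beside 0.01 for all tested genes. By expressed copy, 5 of the 7 tested maternally expressed genes passed as lower and none as higher, and the 2 paternally expressed genes, Igf2 and Kcnq1ot1, lay on opposite sides.

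**Figure D1:**
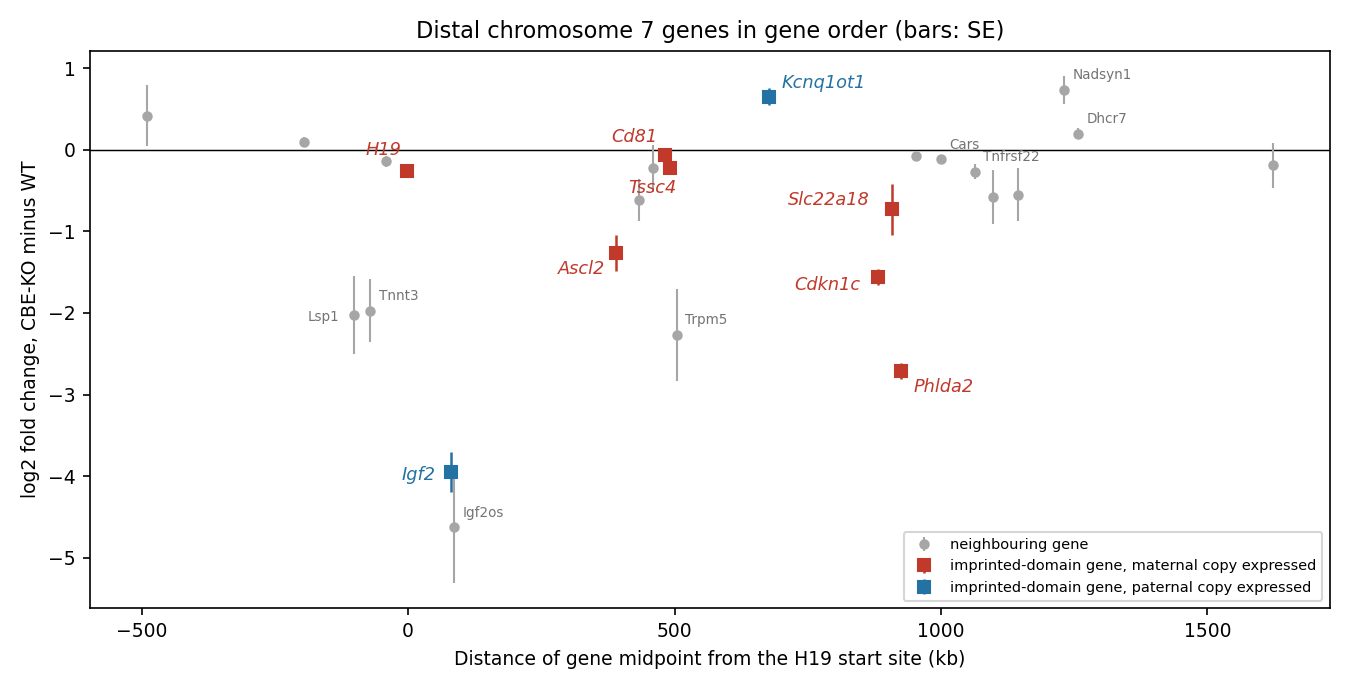
Log2 fold change (CBE-KO minus WT, y axis, bars are SE from edgeR) of tested distal chromosome 7 genes against the distance of the gene midpoint from the H19 start site in kb (x axis). Squares are the imprinted-domain genes coloured by the copy known to be expressed, grey circles are neighbouring genes, named where they passed the test; Igf2 at -3.95 and Phlda2 at -2.71 lie lowest among the squares and Kcnq1ot1 at 0.65 is the square above 0.

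Igf2 (ENSMUSG00000048583) encodes insulin-like growth factor 2, a fetal growth factor. It had 238 and 180 counts in WT against 12 and 17 in CBE-KO, or 16.3 and 13.1 CPM against 0.738 and 1.17 CPM. Both CBE-KO libraries were far below both WT libraries, yet above the floor of 3 counts. The log2 fold change was -3.95 ± 0.24 (SE), a level 6.47% of that in WT. It was the sixth lowest of all 16005 tested genes, a rank that belongs to the reason it was chosen. Leaving out 1 library at a time gave values between -4.30 and -3.64.

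H19 (ENSMUSG00000000031), the noncoding RNA made from the maternal copy, whose enhancers Igf2 shares, had 1088 and 907 counts in WT against 926 and 874 in CBE-KO. On the CPM scale these were 74.4 and 65.8 against 56.9 and 59.9, lower in both CBE-KO libraries with a narrow gap between the groups. The log2 fold change was -0.26 ± 0.07 (SE). H19 passed the threshold with TMM scaling but not with library totals alone, where its log2 fold change was -0.16, nor without WT replicate 1, where it was -0.17. The count ratio of H19 to Igf2, which needs no scaling between libraries, was 4.57 and 5.04 in the WT libraries and 77.2 and 51.4 in the CBE-KO libraries. Its mean was 13.4 times as high in CBE-KO, a change carried by the Igf2 counts. Mir675 and Mir483, the miRNA genes inside H19 and Igf2, had 0 counts in all 4 libraries, which allows up to 3 counts in each, and the tables hold no small RNA libraries to measure them by.

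Kcnq1ot1 (ENSMUSG00000101609), the paternally expressed RNA at the centre of the Kcnq1 domain, was the gene that was higher in CBE-KO. It had 226 and 216 counts in WT against 382 and 371 in CBE-KO, or 15.4 and 15.7 CPM against 23.5 and 25.4 CPM. The 2 WT libraries were nearly equal and both CBE-KO libraries lay well above them. The log2 fold change was 0.65 ± 0.11 (SE), a level 157% of that in WT, and it lay between 0.59 and 0.76 over all settings and left-out libraries. Kcnq1 (ENSMUSG00000009545), the potassium channel gene that contains it, had 2, 1, 0 and 2 counts in WT replicates 1 and 2 and CBE-KO replicates 1 and 2. That is at or under the floor in every library, so Kcnq1 was not tested and has no fold change. Use of strand in counting is not given in the sources used here, so reads of this overlapping antisense pair cannot be told apart with certainty.

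**Figure D2:**
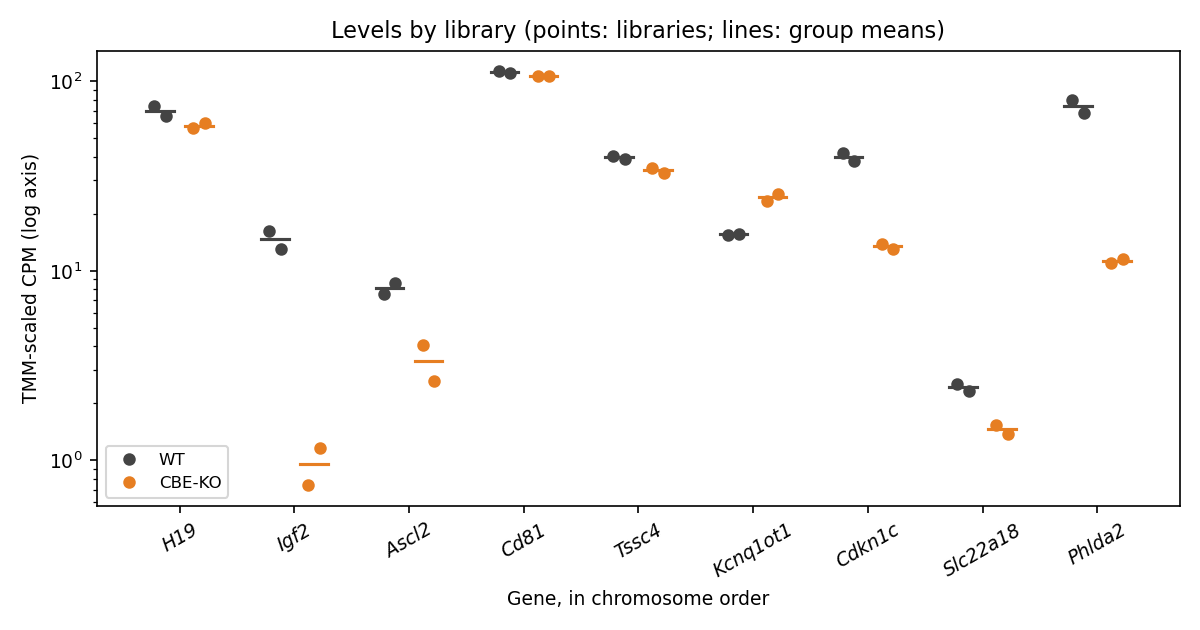
TMM-scaled CPM (y axis, log axis) of the 9 tested genes in chromosome order (x axis), with 1 point per library and a line at each group mean. Igf2 falls from 16.3 and 13.1 CPM in WT to 0.738 and 1.17 CPM in CBE-KO, Phlda2 and Cdkn1c are also well separated, and Cd81 differs least.

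The maternally expressed genes on the far side of Kcnq1ot1 were all lower in CBE-KO, to different degrees. Phlda2 (ENSMUSG00000010760), a pleckstrin-homology protein that limits placental growth, had 1161 and 940 counts in WT against 178 and 169 in CBE-KO, or 79.3 and 68.2 CPM against 10.9 and 11.6 CPM. The CBE-KO libraries differed little from each other and stood far below WT. Its log2 fold change of -2.71 ± 0.09 (SE) put CBE-KO at 15.3% of the WT level, 6.55-fold lower. Cdkn1c (ENSMUSG00000037664), a cyclin-dependent kinase inhibitor that restrains growth, had 612 and 523 counts in WT against 226 and 191 in CBE-KO, or 41.8 and 38.0 CPM against 13.9 and 13.1 CPM. This 2.95-fold lower level was also clear of the replicate spread, with a log2 fold change of -1.56 ± 0.10 (SE). Slc22a18 (ENSMUSG00000000154), a membrane transporter gene between them, had only 37 and 32 counts in WT against 25 and 20 in CBE-KO, or 2.53 and 2.32 CPM against 1.54 and 1.37 CPM. The libraries did not overlap, but its log2 fold change of -0.73 ± 0.31 (SE) did not pass the threshold at this depth.

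The ratios of these genes to Kcnq1ot1 within a library show the divergence without scaling. Kcnq1ot1 counts per Cdkn1c count were 0.369 and 0.413 in WT and 1.69 and 1.94 in CBE-KO. Kcnq1ot1 counts per Phlda2 count were 0.195 and 0.230 in WT and 2.15 and 2.20 in CBE-KO, on average 10.2 times as high. In each WT library Kcnq1ot1 thus had fewer counts than either gene, and in each CBE-KO library more, although counts of different genes also reflect their lengths. Cdkn1c and Phlda2 did not move by the same factor, since Cdkn1c counts per Phlda2 count were 0.527 and 0.556 in WT and 1.27 and 1.13 in CBE-KO.

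**Figure D3:**
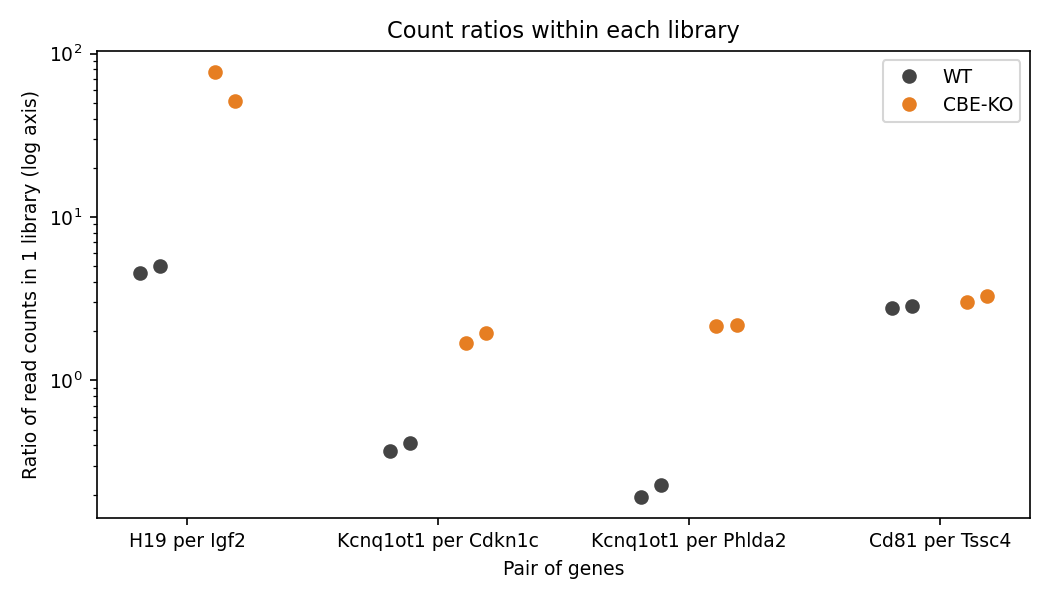
Ratio of the read counts of 2 genes within each library (y axis, log axis) for 4 gene pairs (x axis), with 1 point per library. The ratio of H19 to Igf2 is 4.57 and 5.04 in WT and 77.2 and 51.4 in CBE-KO, whereas that of Cd81 to Tssc4 stays between 2.78 and 3.27 in all 4 libraries.

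On the other side of Kcnq1ot1, towards Igf2, differences were smaller except for Ascl2. Ascl2 (ENSMUSG00000009248), a basic helix-loop-helix transcription factor needed in trophoblast, had 111 and 119 counts in WT against 66 and 38 in CBE-KO, or 7.59 and 8.64 CPM against 4.06 and 2.61 CPM. Both CBE-KO libraries were lower, but they differed from each other more than those of any other gene here apart from Igf2. The log2 fold change was -1.27 ± 0.22 (SE), and it ranged from -1.63 to -0.997 when single libraries were left out. Tssc4 (ENSMUSG00000045752), a splicing-related gene, had 593 and 534 counts in WT against 570 and 478 in CBE-KO, or 40.5 and 38.8 CPM against 35.1 and 32.8 CPM. This difference of -0.22 ± 0.08 (SE) on the log2 scale was small and its call was lost with library totals alone, in DESeq2, without WT replicate 1 and without CBE-KO replicate 2. Cd81 (ENSMUSG00000037706), a tetraspanin of the cell surface, had 1651 and 1517 counts in WT against 1728 and 1564 in CBE-KO, or 113 and 110 CPM against 106 and 107 CPM. Its log2 fold change of -0.06 ± 0.05 (SE) did not pass, and its sign turned to 0.04 with library totals alone. Cd81 and Tssc4 are neighbours, and their count ratio of 2.78 and 2.84 in WT and 3.03 and 3.27 in CBE-KO moved little.

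Genes near the domains were then compared by position alone, as all other RefSeq genes from 0.5 Mb before H19 to 0.5 Mb beyond Phlda2. Of 70 such genes, 17 were tested and 8 passed, 6 lower and 2 higher, which is 47.1% beside 43.1% over all genes, and the median log2 fold change was -0.23. Inside the domains, Igf2os (20 and 31 counts in WT, 1 and 1 in CBE-KO), an antisense RNA that overlaps Igf2, fell 27.7-fold (95% exact counting interval 7.28 to 235, counting error only). Without knowledge of strand its reads cannot be told apart from those of Igf2, which was chosen for its low CBE-KO counts. The fall of Igf2os, 1 of the 8 neighbours that passed, is therefore also a description, and no p-value is given for it. Trpm5, a taste-signalling channel gene between Tssc4 and Kcnq1, fell from 17 and 15 counts to 3 and 4 (log2 fold change -2.27 ± 0.57, SE; edgeR adjusted p = 0.00353), and did not pass without CBE-KO replicate 1 (adjusted p = 0.0588). Before H19, the muscle troponin gene Tnnt3 (38 and 56 counts against 19 and 7) fell by 1.97 on the log2 scale (SE 0.39; edgeR adjusted p = 0.000505), with values of -2.77 without CBE-KO replicate 1 and -1.50 without CBE-KO replicate 2. Its neighbour Lsp1 (23 and 19 counts against 6 and 5), a leukocyte actin-binding protein gene, fell by 2.02 (SE 0.48; edgeR adjusted p = 0.00237).

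The well expressed genes that adjoin the domains on either side moved little. Mrpl23, the last tested gene before H19, had a log2 fold change of -0.14 and did not pass, and neither did Nap1l4, next to Phlda2, at -0.08. Farther out, Cars (-0.12) and Tnfrsf22 (-0.27) fell, and Nadsyn1 (0.73), an NAD synthesis gene, and Dhcr7 (0.20), the last enzyme of cholesterol synthesis, rose. Of these, the calls of Cars, Tnfrsf22 and Dhcr7 were lost in DESeq2, and those of Cars and Tnfrsf22 also with library totals alone, which gave 3 higher and 4 lower neighbours. With single libraries left out, Dhcr7 was lost without WT replicate 1 (0.11, edgeR adjusted p = 0.246) or either CBE-KO library, Tnfrsf22 without WT replicate 1 or CBE-KO replicate 2, and Cars without WT replicate 2 or either CBE-KO library. Cars was also lost without the expression filter, with a mean of at least 1 CPM and with the replicate number as a block (adjusted p = 0.0841). Without CBE-KO replicate 1 the number of neighbours past the threshold was 5. The imprinted gene Th had 12, 9, 3 and 4 counts in WT replicates 1 and 2 and CBE-KO replicates 1 and 2 and was not tested. Ins2 had 0 in all libraries. The neighbours were taken by position and were not sorted into imprinted genes and others.

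The pathway of Igf2 was described by a list of 25 ligands, receptors, adaptors, binding proteins, proteases and mRNA-binding proteins. Of these, 16 were tested and 13 passed, 10 higher and 3 lower, a share of 81.3% beside 43.1% over all genes, with a median log2 fold change of 0.38. The list was drawn up with earlier results of these data known, so nothing is read from its share. The receptors, Igfbp2, Igfbp3, Igfals, Stc2 and the mRNA-binding proteins were named after values were seen. No other ligand was measurable: Igf1 had at most 3 counts in any library, and Ins1 and Ins2 had 0. Of the receptors, Igf2r, which clears IGF2 from the cell surface and is itself imprinted, rose by 0.37 (edgeR adjusted p = 2.95e-05) and Insr, the insulin receptor, by 0.89 (edgeR adjusted p = 1.64e-07). Igf1r, the main signalling receptor for IGF2, had a log2 fold change of 0.13 that did not pass (edgeR adjusted p = 0.196). All 5 tested binding proteins of the Igfbp family rose. Igfbp2, with the most counts of them, rose by 0.34 and Igfbp3 by 0.59. Igfbp7 (7 and 6 counts in WT, 32 and 27 in CBE-KO) rose by 2.04, Igfbp6 (4 and 5 against 18 and 19) by 1.90 and Igfbp4 (57 and 41 against 109 and 92) by 0.92 on the log2 scale. The adaptor Irs1 (3 and 4 counts against 20 and 16) rose by 2.20. Irs1 and Igfbp6 missed the threshold in DESeq2 (adjusted p = 0.0530 and 0.0816), as did Igfbp6 without WT replicate 1 or CBE-KO replicate 2 (edgeR adjusted p = 0.0723 and 0.0684). The mRNA-binding proteins named for Igf2 split, with Igf2bp2 at -0.50 and Igf2bp1 at -0.15 lower and Igf2bp3 at 0.51 higher. Stc2, also listed, fell by 0.41 (edgeR adjusted p = 0.00431), and Igfals at -0.28 did not pass (edgeR adjusted p = 0.394).

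Other imprinted genes were listed for comparison, and more of them rose than fell. Of 56 genes, Th included, 39 were tested and 30 passed (76.9%), 21 higher and 9 lower, or 23 and 4 with library totals alone. Over all tested genes 43.1% passed, 21.6% higher and 21.5% lower. Igf2r and Grb10, both called higher, are also in the IGF pathway list, so the shares of these lists are not separate. Of 22 tested paternally expressed genes, 14 rose and 3 fell, with a median log2 fold change of 0.55. Of 17 tested maternally expressed genes, 7 rose and 6 fell, with a median of 0.11. The copy given for these genes is the one known from textbooks, not always from such cells. Which copy these cells expressed was not measured. Peg13, a paternally expressed noncoding RNA, had 6 and 0 counts in WT against 153 and 138 in CBE-KO, and rose by 5.43 ± 0.42 on the log2 scale (SE; edgeR adjusted p = 1.56e-08). Without WT replicate 2 the value was 4.49, and without WT replicate 1 the remaining WT library had 0 counts and the fitted value was 10.13, which is no bound. Plagl1, a zinc-finger transcription factor known to regulate other imprinted genes including Igf2 and H19, had 42 and 16 counts in WT against 1073 and 917 in CBE-KO, and rose by 4.98 ± 0.16 on the log2 scale (SE; edgeR adjusted p = 2.72e-13). Both CBE-KO libraries of Plagl1 were more than an order of magnitude above both WT libraries, and leaving out WT replicate 1 or 2 gave 5.78 or 4.48. Ddc (2.04), a decarboxylase of neurotransmitter synthesis, and the neuronal proteolipid gene Nnat (1.84) rose as well.

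Among maternally expressed genes elsewhere, Mirg (1.77), a noncoding RNA of the Dlk1-Dio3 domain, and Meg3 (1.31) of the same domain rose, and the paraoxonase genes Pon2 (-1.04) and Pon3 (-0.80) fell. Meg3 missed the threshold in DESeq2 (adjusted p = 0.177) or without WT replicate 1 or CBE-KO replicate 2 (edgeR adjusted p = 0.232 and 0.352). Pon3 missed it in DESeq2 (adjusted p = 0.213), with library totals alone (edgeR adjusted p = 0.0712) or without WT replicate 1, CBE-KO replicate 1 or CBE-KO replicate 2 (edgeR adjusted p from 0.112 to 0.275). These lists hold textbook imprinted genes, and were drawn up with earlier results of these data known.

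**Figure D4:**
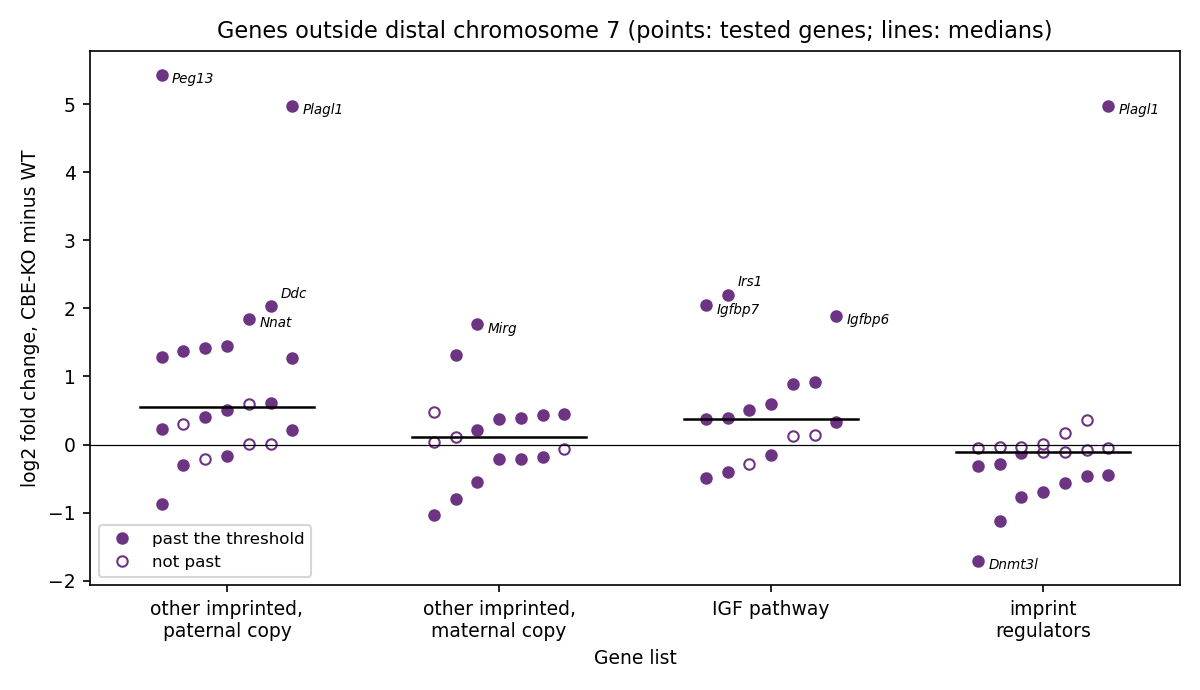
Log2 fold change (CBE-KO minus WT, y axis) of the tested genes of 4 lists (x axis): imprinted genes elsewhere by the copy known from textbooks to be expressed, IGF pathway genes and imprint regulators. Filled points passed edgeR's test and lines are list medians. These were 0.55 and 0.11 for the genes listed as paternally and maternally expressed, 0.38 for the IGF pathway and -0.11 for the regulators. Plagl1 stands in 2 lists at 4.98, as do Igf2r at 0.37 and Grb10 at 0.39.

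Factors that set or keep imprints or act on imprinted genes were listed as well, 22 genes of which 21 were tested. Of these, 11 passed (52.4%), 1 higher (Plagl1) and 10 lower, with a median log2 fold change of -0.11. Over all tested genes the share was 43.1%, with 21.5% lower. Like the others, this list was drawn up with earlier results of these data known, and its share is a description. Plagl1 is itself an imprinted gene, also counted above among the paternally expressed genes, and is listed here as a regulator of imprinted genes. The de novo DNA methylation cofactor Dnmt3l fell from 530 to 162 CPM (means; log2 fold change -1.71 ± 0.05, SE; edgeR adjusted p = 3.85e-14). Dnmt3b, a de novo methyltransferase, fell from 188 to 86.2 CPM (-1.13 ± 0.05, SE; edgeR adjusted p = 1.74e-11). Hnrnpu, a nuclear RNA-binding protein, fell by 0.77, but missed the threshold in DESeq2 (adjusted p = 0.0622); its log2 fold change was -0.42 without WT replicate 1 and -1.05 without WT replicate 2. Ehmt2, the histone methyltransferase that acts with Kcnq1ot1 in placenta, was at -0.70 and the Polycomb subunit Eed at -0.46, both past the threshold. Maintenance factors at the imprints were split. Trim28, the corepressor partner of ZFP57, fell by 0.44 (edgeR adjusted p = 1.82e-07) and Uhrf1, the partner of DNMT1, by 0.29 (edgeR adjusted p = 5.74e-05). Dnmt1 (-0.11, edgeR adjusted p = 0.0563), Zfp57 (-0.08, edgeR adjusted p = 0.156) and Ctcf (-0.05, edgeR adjusted p = 0.472) did not pass, and Zfp57 and Ctcf changed sign with library totals alone. No methylation was measured here.

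Because Ascl2 and Phlda2 are placental genes and Igf2 and H19 are abundant in endoderm and mesoderm, markers of those cells were summed in each library. The 12 trophoblast markers summed to 117 and 107 CPM in WT and 114 and 116 CPM in CBE-KO, groups that overlap, with Elf5, Prl3d1, Prl3b1 and Tpbpa at or under 3 counts throughout. Most of that sum came from the keratins Krt8 and Krt18, and the single markers moved in both directions: of 8 tested, 2 passed as higher (Krt8 by 0.20 and Krt18 by 0.41) and 2 as lower. The placental transcription factor Gcm1 (48 and 62 counts in WT, 16 and 11 in CBE-KO) fell by 2.14 (edgeR adjusted p = 4.87e-05) and Tfap2c, a factor of trophoblast and germ cells, by 0.74 (edgeR adjusted p = 5.39e-05), alongside Ascl2 and Phlda2. The 10 extraembryonic endoderm markers summed to 96.1 and 97.3 CPM in WT and 106 and 109 CPM in CBE-KO, with Ttr at or under 3 counts. Of its 8 tested genes 4 passed as higher and 1 as lower. Of the tested trophoblast and endoderm markers 50.0% and 62.5% passed, beside 43.1% of all tested genes (21.6% higher, 21.5% lower). The 6 mesoderm markers summed to 4.58 and 4.50 CPM in WT and 6.40 and 6.58 CPM in CBE-KO. The 8 fibroblast markers summed to 11.7 and 13.2 against 16.2 and 18.7 CPM, with Dcn, Lum and Postn at or under 3 counts. Of 4 tested mesoderm markers 1 passed, and of 3 tested fibroblast markers 2 passed, all as higher. The endoderm, mesoderm and fibroblast sums did not overlap between the groups, nor did the values of 70.4% of all tested genes. Of the endoderm markers, 4 passed as higher, but Amn passed as lower (-1.15) and Gata6 did not pass (0.009). Pluripotency markers passed in both directions, 6 lower and 2 higher. Single trophoblast markers also moved in both directions, Gcm1 and Tfap2c lower and Krt8 and Krt18 higher. The part of all these markers in the imprinted-gene values was not tested. In bulk libraries, fewer cells expressing a gene and less RNA per cell cannot be told apart.

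The genes whose values over the 4 libraries lay closest to those of the imprinted genes were found by the root mean square difference of centred log2 CPM. Closest to Igf2 were Trp53tg5 (0.241; 61 and 57 counts in WT, 1 and 2 in CBE-KO), Spint5 (0.302; 113 and 92 against 9 and 7) and the predicted gene Gm18795 (0.405; 16 and 13 against 0 and 0). Closest to Phlda2 were 9330159F19Rik (0.067; 376 and 314 against 64 and 55), Enox1 (0.082; 423 and 371 against 75 and 67) and Gm43411 (0.111; 11 and 11 against 0 and 0). None of these 6 is among the 70 genes of the distal chromosome 7 window. Closest to H19 were Mipol1 (0.010), Psmc5 (0.010) and Chrnb1 (0.011), whose small differences many genes share. The log2 CPM used here had a small count added, which shrinks the differences of genes with few counts. Fitted log2 fold changes of Trp53tg5 (-5.30), Gm18795 (-6.93) and Gm43411 (-6.54) were far larger in size than those of Igf2 (-3.95) and Phlda2 (-2.71). Those of Spint5 (-3.77), 9330159F19Rik (-2.65) and Enox1 (-2.60) were similar. With 4 libraries in 2 groups, likeness of this kind says little beyond the size of the group difference on that scale.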

How the data were processed

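RNA-seq of 2 WT and 2 CBE-KO libraries was used, and Capture-C was not analysed here. The authors deposited raw read counts for each Ensembl gene, 1 table per library, whole numbers without normalization as the values show. HISAT2 2.1.0, HTSeq 0.9.1, DESeq2 1.18.1, Bowtie2 2.3.1 and the build mm10 (GRCm38) are named per the submitters' processing notes, without roles; annotation, use of strand and treatment of multi-mapping reads are not given in the sources used here. Of 52636 identifiers, 52403 matched a symbol in the supplied name table. RefSeq GRCm38.p6 gave coordinates and promoters, by symbol.

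Genes were kept with filterByExpr (edgeR 4.0.16, R 4.3.3), scaled by TMM and tested with glmQLFit and glmQLFTest, two-sided, with Benjamini-Hochberg adjustment over 16005 genes and a threshold of 0.05. SE is the log2 fold change over the square root of F. Scripts were tested on simulated data. Alternatives were DESeq2 1.42.0, library totals alone or median-of-ratios scaling, dropping the filter or asking for 1 CPM on average, a block for the replicate number, and leaving out each library. Members and lists were chosen with earlier results of these data known. Named genes were all members, every neighbour that passed and the 4 largest absolute log2 fold changes past the threshold in each list. Also named were the 3 nearest patterns to Igf2, Phlda2 and H19, and check genes. Named for their role or place after values were seen were the receptors, further ligands, Igfbp2, Igfbp3, Igfals, Stc2, mRNA-binding proteins, Trim28, Uhrf1, Ehmt2, Eed and Dnmt1. So were Zfp57, Th, Mrpl23, Nap1l4, Xist and single cell type markers. Of the check genes, Kdm5d had at most 7 counts and was not tested. Totals of 14108038 to 15632960 counts set the precision, and floors cover counting error only.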

Additional observations from a re-analysis of the deposited data

How the results depend on the processing

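The number of genes past the threshold was 6895 in edgeR with TMM scaling (3461 higher, 3434 lower), 4577 in DESeq2 (2047 higher, 2530 lower) and 4770 higher and 2352 lower under scaling by library totals, where all genes together shifted by a median of 0.11 (log2). Of the 9 tested imprinted-domain genes, 7 passed, beside 43.1% of all tested genes, and nothing is read from this count. Between 5 and 7 passed under every alternative that kept all libraries. The calls lost were those of H19 and Tssc4. Neighbouring genes past the threshold numbered 8, but 5 in DESeq2, 4 with a mean of at least 1 CPM, where 14 in place of 17 were tested, and 5 to 7 with 1 library left out; the cause in DESeq2 was not tested. Counts for other imprinted genes (22 to 30), the IGF pathway (11 to 14) and imprint regulators (10 to 12) stayed within 1.5 times. Ctcf, at -0.05, turned to 0.056 with library totals alone. With a library left out, the lone library of its group was assumed to vary like the pair of the other group. In the fit with the replicate block, 7027 genes passed, 7 of them members, 7 neighbours, 30 other imprinted genes, 13 of the IGF pathway and 10 regulators. Same-numbered libraries had deviations from their group means that correlated at 0.035, and the labels do not pair them. At these depths Kcnq1 was not measurable and Slc22a18 could not be called.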
